A study of Mus musculus with 2 samples.

Results

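Complement C1q macrophages were taken as the barcodes that carried RNA of the C1q genes together with Csf1r, the gene of the receptor for the macrophage growth factor CSF1. A barcode was a member when it held 1000 or more UMIs (unique molecular identifiers, each counting 1 captured RNA molecule), 200 or more genes and at most 25% mitochondrial UMIs. C1qa, C1qb and C1qc together had to make up at least 0.2% of its UMIs, Csf1r had to have 1 UMI or more, and the mast cell genes Cpa3, Mcpt1 and Mcpt2 together had to stay under 1%. The members were thus chosen by measured RNA of these genes, whose levels are given below as description only. The rule found 891 barcodes of 22104 that passed the quality limits, 567 of 10638 in the first library and 324 of 11466 in the second.

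The 2 libraries were 10x Genomics 3′ single-cell libraries from colon tumours of mice given azoxymethane and dextran sodium sulfate (AOM/DSS), a carcinogen followed by an agent that injures the colon lining. The WT library is labelled Gsk3b (IEC+/+) and the KO library Gsk3b (IEC-/-), where the series title names the intestinal epithelium as the site of the loss. Each group is 1 library, so no test between the groups was possible, and every interval below covers counting error only. The number, age, sex and strain of the animals, the driver of the deletion and any pooling are not given in the sources used here. By the labels both groups share the same carcinogen and injury, and the loss is placed in epithelial cells and not in macrophages.

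C1q is the recognition molecule of the classical complement pathway. It is built from chains encoded by C1qa, C1qb and C1qc, which lie side by side in the genome, and tissue macrophages are a major source of it. C1q marks antibody-coated particles and dying cells for uptake, and in the gut and in tumours C1q-rich macrophages are known for clearing cell debris, handling lipid and presenting antigen on MHC class II. Macrophages that arise from recruited blood monocytes gain these genes as they lose monocyte genes.

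The 3 chain genes lie on the minus strand of chromosome 4 in mm10, C1qb at chr4:136880129-136886187, C1qc at chr4:136889804-136893065 and C1qa at chr4:136895917-136898803. Apoe, which encodes the lipid carrier apolipoprotein E, lies at chr7:19696109-19699188 on the minus strand. Among the members the summed share of the C1q genes, which the rule used, went with Apoe RNA. The stretches just upstream of the annotated starts of C1qb, C1qc and Apoe are therefore shown. They come from RefSeq on GRCm38.p6, are written 5′ to 3′ on the gene's own strand and leave out bases inside annotated exons, which shortened the C1qc stretch to 99 bases. Capitals mark GAGGAA or its reverse complement TTCCTC, the core bound by PU.1, the lineage factor of macrophages encoded by Spi1.
C1qb, chr4:136886201-136886450: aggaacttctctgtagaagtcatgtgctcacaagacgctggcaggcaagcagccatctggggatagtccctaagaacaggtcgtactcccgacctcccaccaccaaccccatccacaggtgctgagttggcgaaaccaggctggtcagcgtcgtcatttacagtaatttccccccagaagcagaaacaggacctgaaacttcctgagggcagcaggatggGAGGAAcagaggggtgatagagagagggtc
C1qc, chr4:136893066-136893164: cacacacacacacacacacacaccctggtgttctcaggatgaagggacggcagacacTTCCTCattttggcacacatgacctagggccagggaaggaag
Apoe, chr7:19699189-19699438: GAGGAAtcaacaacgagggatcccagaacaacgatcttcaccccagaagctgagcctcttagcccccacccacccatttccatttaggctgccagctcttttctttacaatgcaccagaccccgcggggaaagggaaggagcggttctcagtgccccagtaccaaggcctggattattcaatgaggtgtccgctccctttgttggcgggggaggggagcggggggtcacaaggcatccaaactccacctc
Each stretch held 1 such match, but 7639 of 32851 upstream windows of 250 bases (23.3%) hold one, so the match does not set these genes apart. The table lists 2 further Apoe stretches, for other annotated starts, which held no match. It holds no entry for C1qa. The Ms4a7 stretch held no match on either strand and that of Pf4 held 1. Spi1 RNA itself stood at 360 CPM in WT and 347 CPM in KO barcodes (CPM, the UMIs of a gene summed over the member barcodes and scaled to a common total for all genes).

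C1q macrophages made up 5.33% of quality-filtered barcodes in the WT library (exact binomial 95% interval 4.91 to 5.77) and 2.83% in the KO library (2.53 to 3.15). Among barcodes with a UMI of Ptprc, the gene of the leukocyte antigen CD45, the shares were 8.93% (8.21 to 9.70) and 5.04% (4.49 to 5.63). Among barcodes with Csf1r they were 27.5% (25.6 to 29.5) and 23.3% (21.1 to 25.6), so the libraries lay closer together within the Csf1r-positive barcodes than within all barcodes. Without barcodes that held over 0.5% of UMIs from another cell class's markers, the last shares were 48.0% and 46.0%. Dendritic cell markers did not count for this limit, here or below. A lower share of macrophages and a higher share of other captured cells cannot be told apart here. No member barcode sequence occurred in both libraries.

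The members held 8172410 UMIs in WT and 4635773 UMIs in KO barcodes. Medians per barcode were 11976 and 11575 UMIs, 3344 and 3234.5 genes, and 2.59% and 2.63% mitochondrial UMIs, so depth and mitochondrial share were alike. The rule left out 106 WT and 72 KO barcodes that passed the C1q limit without a Csf1r UMI. A further 39 WT and 31 KO barcodes had Csf1r but only 0.1 to 0.2% of C1q. Markers of other classes were low but present. Summed over the members, 14 epithelial markers took 0.306% of WT and 0.3004% of KO UMIs, 10 neutrophil markers 0.229% and 0.169%, 10 B and plasma cell markers 0.0536% and 0.0403%, and 11 dendritic cell markers 0.0268% and 0.0256%. The lists of mast cell (0.0155% and 0.00518%), T and NK cell (0.0056% and 0.00341%), endothelial (0.00515% and 0.00455%) and fibroblast markers (0.000905% and 0.00429%) were lower still. Cd209a and Fcer1a were at 0 in the KO members and Dpt in the WT members. Over 0.5% of another class's markers, dendritic cell markers not counted, was carried by 73 WT and 40 KO members. Scrublet, which scores barcodes for the chance of holding 2 cells, put 70 WT and 31 KO members among the barcodes removed in an alternative. RNA floating free in the suspension was put at 19.9% and 16.5% of the members' UMIs, taking all their epithelial marker RNA as free. Barcodes that also held an epithelial cell raise this estimate, so it can be too high.

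The C1q genes, which chose the members, stood at 4733 CPM in WT and 4268 CPM in KO barcodes for C1qa, at 3757 and 3355 CPM for C1qb, and at 2621 and 2234 CPM for C1qc. Their summed share had a median of 1.18% of a barcode's UMIs in WT and 0.902% in KO barcodes. Csf1r stood at 494 and 440 CPM. These are values of the rule and are given as description. Free RNA of the same genes was widespread, since 47.9% of WT and 31.1% of KO epithelial barcodes had a C1qa UMI (median depths 15043 and 13802 UMIs). The share threshold of the rule, rather than a UMI, is what sets the members apart.

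The remaining marker genes were not part of the rule. Ms4a7, a membrane protein gene of tissue macrophages, stood at 585 CPM in WT and 516 CPM in KO barcodes, and 81.3% and 75.3% of barcodes had a UMI against 7.11% and 4.04% of epithelial barcodes. Pf4, the gene of platelet factor 4 that tissue macrophages also express, stood at 919 and 1007 CPM, with a UMI in 73.2% and 70.7% of members against 18.4% and 19.9% of epithelial barcodes. Both therefore marked the members well above the free RNA level in each library. Apoe stood at 21673 CPM in WT and 13477 CPM in KO barcodes, a log2 ratio of KO over WT of -0.69 (95% interval -0.70 to -0.67). Its barcode median was 19192 CPM in the WT members and 9398 CPM in the KO members, and the quartile ranges, 7385 to 35458 CPM and 4182 to 21206 CPM, overlapped. Free RNA of Apoe was lower in the KO library too, by a log2 ratio of -1.23. Apoe kept its call in all 15 alternatives (log2 ratios -0.77 to -0.67), free RNA subtraction included. The part of free RNA in the difference was not tested further.

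**Figure D1:**
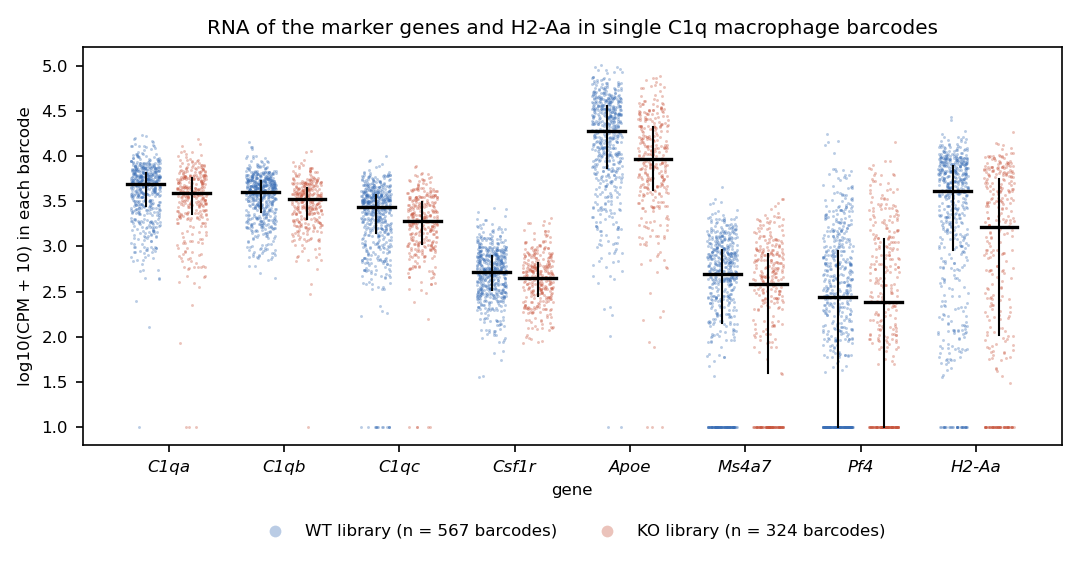
Each point is 1 C1q macrophage barcode, plotted as log10(CPM + 10) on the vertical axis for each gene on the horizontal axis, with WT barcodes in blue (n = 567) and KO barcodes in red (n = 324). Bars are medians and vertical lines quartiles, and points at 1.0 have no UMI; the C1q chains and Csf1r chose the members, Apoe is lower in the KO barcodes by its median, and H2-Aa is widely spread in both libraries.

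The members were next set beside Csf1r-positive barcodes with under 0.1% of C1q, to describe what else travelled with C1q. Most of those barcodes, 65.0% (WT) and 69.9% (KO), held over 0.5% of another class's markers, and the genes furthest below in the members were then products of Paneth and other epithelial cells such as Defa30, Defa22 and Ang4. The comparison was therefore repeated without such barcodes on either side, a choice made after seeing the data, which left 494 WT and 284 KO members and 509 and 312 low-C1q barcodes. Their median depths differed, at 11971 and 11596.5 UMIs in the members and 6243 and 7229.5 UMIs in the low-C1q barcodes. Against all low-C1q barcodes 1482 of 12424 genes (11.9%) were higher and 4245 (34.2%) lower in the members of both libraries. Of 8416 genes measured, 997 (11.8%) were over 1.5-fold higher and 759 (9.02%) over 1.5-fold lower in the members of both libraries, with a 95% interval on the same side. Since C1q divided the barcodes, these are descriptions with no test.

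The genes furthest above, ranked by the interval bound nearest to no difference in the library where it was smaller, were Fcrls, Ms4a7, Igf1, Mfge8, Apoe, Ccl8, Ptgs1, Olfml3, Olfr111 and Cadm1. Fcrls, an Fc receptor-like gene known from microglia, stood 7.49 log2 units above the low-C1q barcodes in the WT library and 5.81 in the KO library. Igf1, the insulin-like growth factor gene, stood 4.72 and 4.71 above. Apoe stood 4.61 and 3.88 above and Ptgs1, which encodes the constitutive cyclooxygenase, 5.18 and 4.91. Mfge8, whose product bridges dying cells to phagocytes, stood 4.15 and 4.60 above, but a UMI was found in 40.7% and 37.0% of members against 44.6% and 42.7% of epithelial barcodes, and 1 barcode held 12.4% and 12.7% of its member UMIs. Detection of Mfge8 thus did not set the members apart from epithelial barcodes.

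The genes furthest below included markers of monocytes. Vcan, a matrix proteoglycan gene of monocytes, stood at log2 ratios of -4.91 in WT and -5.86 in KO barcodes, Ly6c2 at -5.02 and -4.65 and Chil3 at -4.94 and -4.50. Serpinb2 stood at -6.79 and -6.32, Plcb1 at -4.55 and -4.56, Timp1 at -4.35 and -5.19 and Csf3 at -4.24 and -4.61. Slpi, Hp and Dmkn completed the 10, and 53.6% of the Slpi UMIs of the KO members came from 1 barcode. Of 14 monocyte genes measured, 12 were lower in the members of both libraries and 1 was higher, Lyz2, the lysozyme gene of monocytes and macrophages alike (log2 ratios 1.72 and 1.77). Among all genes measured 9.02% were lower and 11.8% higher.

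Lists of macrophage function separated in the same comparison. Of 16 lineage genes 12 were higher in the members of both libraries, among them Adgre1, the F4/80 gene (log2 ratios 2.49 and 2.15), Cx3cr1, the fractalkine receptor gene (2.42 and 2.49), Mertk, an uptake receptor gene (3.27 and 2.82) and Aif1 (2.50 and 2.13). Cd14 and Csf2rb were lower, Cd14 at -1.42 and -1.37. Of 18 lysosome genes 16 were higher, of 22 lipid genes 12, and of 10 complement receptors and regulators 5, with none lower in these lists. C3ar1, the receptor gene of the C3a fragment, stood 2.60 and 2.61 above and C5ar1, that of C5a, 0.73 and 0.59 above. Of 13 cytokine genes measured, 8 were lower in the members, including Il1b (-1.44 and -1.53), Osm (-2.13 and -2.01) and Il1rn (-1.77 and -1.80). Against these, all genes measured divided 11.8% higher and 9.02% lower.

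Low-C1q barcodes were also divided by marker genes of other Csf1r-positive cells, again without other classes' markers. Against 273 WT and 171 KO barcodes with a UMI of the monocyte gene F13a1, 1277 of 7811 genes (16.3%) were higher and 757 (9.69%) lower in the members of both libraries. Against 195 and 134 barcodes with a UMI of Arg1, Ccl24 or Dcstamp, 825 of 7758 genes (10.6%) were higher and 540 (6.96%) lower. The 2 sets share barcodes. H2-Aa, an MHC class II gene, stood 2.48 log2 units (WT) and 2.01 (KO) above the F13a1 barcodes but 0.72 and 0.30 above the Arg1 set. Spp1 stood 1.62 and 2.05 above the F13a1 barcodes and at -0.50 and -0.40 against the Arg1 set. Apoe (4.65 and 4.23, and 4.45 and 3.92) and Ms4a7 (5.19 and 5.31, and 4.49 and 4.85) stood well above both. Cx3cr1 did so by 2.32 and 2.72, and by 2.41 and 2.53. The members thus lay apart from both sets by Apoe, Ms4a7 and Cx3cr1, and from 1 of them by Spp1.

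Long-lived resident macrophages of the gut carry Timd4, Cd4 and Folr2, and those of other tissues Lyve1, Cd163 and Vsig4. Most of these were near the limit of detection in the members. Timd4 stood at 3.92 CPM in WT and 0.216 CPM in KO barcodes, Lyve1 at 0.122 and 1.94 CPM, Cd163 at 0.367 and 0.647 CPM and Vsig4 at 0.734 and 1.51 CPM. Folr2 was at 5.14 and 11.2 CPM, with 21.2% of the KO UMIs from 1 barcode, and Cd4 at 14.6 and 5.61 CPM. By contrast Selenop (461 and 338 CPM), Mrc1 (153 and 124 CPM) and Stab1 (171 and 198 CPM), from the same list, were well covered. Of 7 genes of the list that could be set beside the low-C1q barcodes, 6 were higher in the members. Among all 8416 genes measured 11.8% were higher and 9.02% lower.

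Between the libraries, 944 of 10521 genes with 50 or more UMIs over both sums (8.97%) lay more than 1.5-fold apart with a 95% interval excluding no difference. Of these 307 (2.92% of genes) were higher and 637 (6.05%) lower in the KO members, and the median log2 ratio was -0.02. That split moved when members with other classes' markers were left out, to 378 higher (3.83%) and 453 lower (4.59%) of 9863 genes. Gsk3b, the gene named in the labels, was at 195 CPM in WT and 186 CPM in KO barcodes (log2 ratio -0.06, interval -0.19 to 0.06). The deletion is labelled as epithelial, and a 3′ tag outside a deleted part checks nothing.

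Among well-measured genes the KO members stood highest over the WT members for Il10, Arhgap10, Cxcl9, Fnip2, Lyst, Tnfsf9, F13a1, S100a4, Met and Pde4d. Il10, the gene of the anti-inflammatory cytokine IL-10, was at 29.9 CPM in WT and 79.2 CPM in KO barcodes, a log2 ratio of 1.41 (1.17 to 1.65). A UMI of Il10 was found in 16.9% and 32.1% of members, against 3.11% and 3.97% of epithelial barcodes. Free RNA of Il10 went the other way (-0.28), and in the low-C1q barcodes the log2 ratio was 0.92. Cxcl9, an interferon-gamma-induced chemokine gene, was at 43.6 and 92.8 CPM, a log2 ratio of 1.09 (0.88 to 1.297), with a UMI in only 9.35% and 11.7% of members. In the low-C1q barcodes it stood 1.74 higher. The monocyte gene S100a4 was at 108 and 211 CPM, a log2 ratio of 0.96 (0.83 to 1.10), while the low-C1q barcodes differed by 0.02. F13a1 (18.6 and 42.1 CPM) and Tnfsf9 (17.3 and 39.5 CPM), the gene of 4-1BB ligand, were higher at low levels. Fnip2 (189 and 371 CPM) and Arhgap10 (52.5 and 112 CPM) were higher in the KO low-C1q barcodes as well, by 0.68 and 0.97. A UMI of Met was found in 29.1% and 42.0% of members against 43.7% and 39.2% of epithelial barcodes, and the shares for Lyst and Pde4d were also close to the epithelial ones, so detection alone does not set the members apart for these genes. Pde4d kept its call in all 15 alternatives (log2 ratios 0.78 to 0.94), and Met and Lyst in 14, free RNA subtraction included, losing it after thinning.

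Lowest in the KO members were Apol7c, Hspa1b, H2-M2, Ifit2, Adgrl3, Hspa1a, Il12b, Ccl8, Mgl2 and Adamdec1. Members were not screened for dendritic cell markers. Of 11 such markers 2 held 50 or more UMIs, and 1 of these, Ccr7, was lower in the KO members. Among all genes 6.05% were lower. Without members carrying other classes' markers, no dendritic cell marker was called. The part of dendritic cells in these values was not tested. Ccl8, a chemokine gene that draws monocytes and lymphocytes, was at 270 CPM in WT and 87.6 CPM in KO barcodes, a log2 ratio of -1.63 (-1.78 to -1.47), with a UMI in 23.8% and 11.1% of members against 4.61% and 3.87% of epithelial barcodes. A single KO barcode held 25.6% of its KO UMIs, and free RNA stood 0.25 higher in the KO library. Adamdec1, a metalloprotease-like gene of gut macrophages, was at 83.9 and 31.9 CPM, a log2 ratio of -1.39 (-1.66 to -1.14), where free RNA again went the other way (0.78). Mgl2, a lectin gene, was at 72.6 and 25.5 CPM, with free RNA lower as well (-2.20). Adgrl3 was at 73.7 and 19.6 CPM, Apol7c at 44.1 and 8.20 CPM, and H2-M2, a non-classical MHC gene, at 86.8 and 18.1 CPM. Il12b, the gene of a subunit of IL-12 and IL-23, was at 45.5 and 12.1 CPM but had 21.5% and 28.6% of its UMIs in 1 barcode of each library. The heat shock genes Hspa1a (990 and 315 CPM) and Hspa1b (887 and 217 CPM) were lower in free RNA too, by log2 ratios of -1.23 and -1.33, and in the low-C1q barcodes they differed by 0.48 and 0.24. Hspa1b was found in 63.8% and 39.2% of members and in 61.1% and 41.0% of epithelial barcodes, so its detection did not set the members apart. Its log2 ratio kept its call in all 15 alternatives, free RNA subtraction included, and ranged from -2.15 to -1.43.

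**Figure D2:**
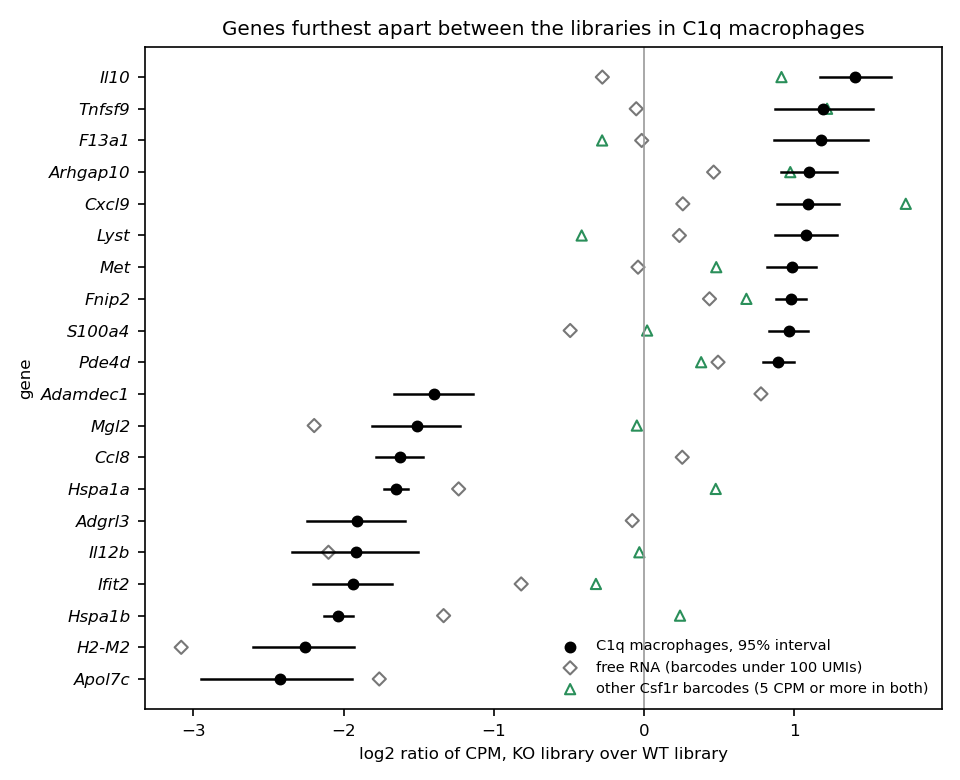
The horizontal axis is the log2 ratio of CPM, KO library over WT library, for the 10 genes highest and the 10 lowest in the KO members by the ranking rule (vertical axis). Black points with lines are C1q macrophages with 95% counting intervals, grey diamonds free RNA and green triangles low-C1q Csf1r barcodes with 5 CPM or more in both libraries; Ccl8 and Adamdec1 lie left of 0 with their free RNA to the right.

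Complement genes outside C1q were few. Of 9 complement component genes with 50 or more UMIs, C1qa, C1qb and C1qc included, 1 was higher and 1 lower in the KO members. Among all genes 2.92% were higher and 6.05% lower. The list median, which also includes the C1q genes of the rule, was -0.07. C3, the central component, was at 40.7 CPM in WT and 77.9 CPM in KO barcodes (log2 ratio 0.93, 0.72 to 1.15), and its free RNA was higher by 0.74. C6, a gene of the membrane attack complex, was at 20.6 and 1.29 CPM (-3.99, -5.46 to -2.84). It was found in 13.6% of WT members and 1.54% of KO members, against 0.191% and 0.0469% of epithelial barcodes. Properdin, the stabiliser of the alternative pathway encoded by Cfp, was at 215 and 268 CPM. Of 10 receptors and regulators 1 was higher, Cd55, with 45.0% of its KO UMIs in 1 barcode and a share of members with a UMI (12.0% and 11.1%) below that of epithelial barcodes (36.1% and 38.1%). C3ar1 (188 and 161 CPM), C5ar1 (354 and 350 CPM) and Itgax (139 and 143 CPM), part of complement receptor 4, lay within 1.5-fold.

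Few uptake genes were called between the libraries, but only 8.97% of all genes were called. So short a list without a call is close to that share. Of 13 genes for uptake of dying cells none was called in either direction, Pros1 (-0.67, -1.39 to 0.01) having an interval that includes no difference. Axl, a receptor gene, was at 155 and 170 CPM and Itgb5, an integrin chain gene, at 252 and 187 CPM. Mertk, from the lineage list, was at 204 CPM in WT and 125 CPM in KO barcodes (log2 ratio -0.71, -0.85 to -0.57), and its free RNA was lower by -0.76. All 18 lysosome genes lay within 1.5-fold, with a median of -0.12, including Ctsb (2636 and 2261 CPM), Ctsd (2161 and 2400 CPM) and Psap (2862 and 2780 CPM). Among 6 Fc receptor genes only Fcgr4, which encodes a receptor for IgG2 antibodies, passed 1.5-fold, at 145 and 74.0 CPM (-0.97, -1.14 to -0.79). Fcer1g, the shared signalling chain, was at 2676 and 2567 CPM. Of 17 pattern recognition receptor genes 2 were higher (Tlr13, Clec12a) and 2 lower (Clec4a3, Tlr8) in the KO members. Among all genes 2.92% were higher and 6.05% lower. Tlr13 kept its call in 9 of 15 alternatives.

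Lipid genes had 2 members higher and 1 lower among 22, with a median of 0.18, against 2.92% higher and 6.05% lower among all genes. Lpl, the lipoprotein lipase gene, was at 63.0 and 98.1 CPM (0.64, 0.45 to 0.82), a call lost with high Scrublet scores removed, without other classes' markers, with free RNA subtracted and after thinning, and Fabp4 at 6.97 and 16.4 CPM. Apoe was the lower gene. Trem2, the gene of a lipid-sensing receptor of macrophages, was at 295 and 338 CPM, Gpnmb at 143 and 204 CPM and Lgals3, the galectin-3 gene, at 1676 and 2498 CPM, all within 1.5-fold. Ferritin genes Fth1 (33050 and 37480 CPM) and Ftl1 (10497 and 14448 CPM) and the heme oxygenase gene Hmox1 (680 and 861 CPM) also stayed within 1.5-fold. Of 11 heme and iron genes only Cp, the ceruloplasmin gene, passed it, at 26.1 and 6.90 CPM (-1.92, -2.50 to -1.38). Apoe therefore went against the direction of the list's median.

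Antigen presentation genes divided by class. Of 9 MHC class II presentation genes 5 were lower in the KO members and none higher, and the median log2 ratio was -0.66, against 6.05% of all genes lower and a median of -0.02. The invariant chain gene Cd74 was at 12314 and 7758 CPM, H2-Aa at 3654 and 2255 CPM, H2-Ab1 at 2988 and 1888 CPM, and H2-Eb1 at 3028 and 1863 CPM. Ciita, the gene of the class II transactivator, was at 37.2 and 16.8 CPM (-1.14, -1.52 to -0.78). Free RNA of these 5 genes was lower in the KO library too, by log2 ratios from -0.65 to -0.93. All 5 kept their calls with free RNA subtracted, and the part of free RNA was not tested further. H2-DMa, a peptide loading gene, was at 311 and 299 CPM. In the low-C1q barcodes Cd74 differed by -0.22 and H2-Aa by -0.31. Those barcodes were not screened for dendritic cell markers, of which 5 of 8 were lower there in the KO library and none higher. Among all genes 3.62% were lower there. None of 12 MHC class I genes passed 1.5-fold, and their median was 0.04.

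Of 7 co-stimulatory genes 2 were higher and 2 lower in the KO members, against 2.92% higher and 6.05% lower among all genes. Cd83 was at 567 CPM in WT and 300.1 CPM in KO barcodes (-0.92, -1.01 to -0.83), while Cd40 was at 26.1 and 40.8 CPM. The Cd40 call was lost at a C1q threshold of 0.5%, at 2 Csf1r UMIs, without other classes' markers and after thinning. Cd86 (743 and 548 CPM) and Cd80 (97.2 and 88.2 CPM), the ligands of CD28, lay within 1.5-fold, as did Cd274, the PD-L1 gene (310.4 and 355 CPM). Among 13 genes listed as inhibitory receptors and ligands only Lilra5 passed, at 40.0 and 19.0 CPM (-1.08, -1.43 to -0.73). Lilra5 encodes a receptor of the activating type, so its value does not describe an inhibitory gene. A UMI of Lilra5 was found in 33.2% and 19.4% of members.

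Of 18 genes induced by type I interferon 9 were lower in the KO members and none higher, with a median of -0.56, against 6.05% lower and 2.92% higher among all genes. Ifih1, which encodes the RNA sensor MDA5, was at 345 and 181 CPM (-0.93), Oasl1 at 196 and 107 CPM (-0.87), Isg15 at 217 and 138 CPM (-0.66) and Ifit2 at 114 and 29.8 CPM (-1.94). Per barcode the list's share was low in most members. Its median was 0.0339% of UMIs in WT and 0.0302% in KO barcodes, whereas the upper quartile was 0.170% and 0.0869%. The libraries thus differed in the barcodes with the most of this RNA. Detection of most of these genes was not far from that of epithelial barcodes: Oasl1 was found in 43.7% and 38.0% of members against 40.5% and 31.6%, and Ifit2 in 30.3% and 12.0% against 25.2% and 15.4%. Ifit1 (67.4 and 36.5 CPM) was detected in 32.3% and 22.5% of members, not more often than in epithelial barcodes (36.8% and 25.4%), so detection does not set the members apart. Ifit2 kept its call in all 15 alternatives (log2 ratios -2.27 to -1.92) and Ifit1 in 14, both with free RNA subtracted. The list took 0.128% of member UMIs and 0.0886% of free RNA UMIs in the WT library, and 0.0752% and 0.0636% in the KO library. In the low-C1q barcodes 5 of 12 genes of the list were higher in the KO library and none lower, where 4.04% of all 7973 genes were higher and 3.62% lower. Of 17 genes induced by interferon-gamma 2 were higher (Cxcl9, Socs1) and 2 lower (Gbp5, Gbp6) in the KO members, with a median of 0.14. In the low-C1q barcodes 7 of 11 genes of this list were higher in the KO library and none lower, with a median of 0.81.

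**Figure D3:**
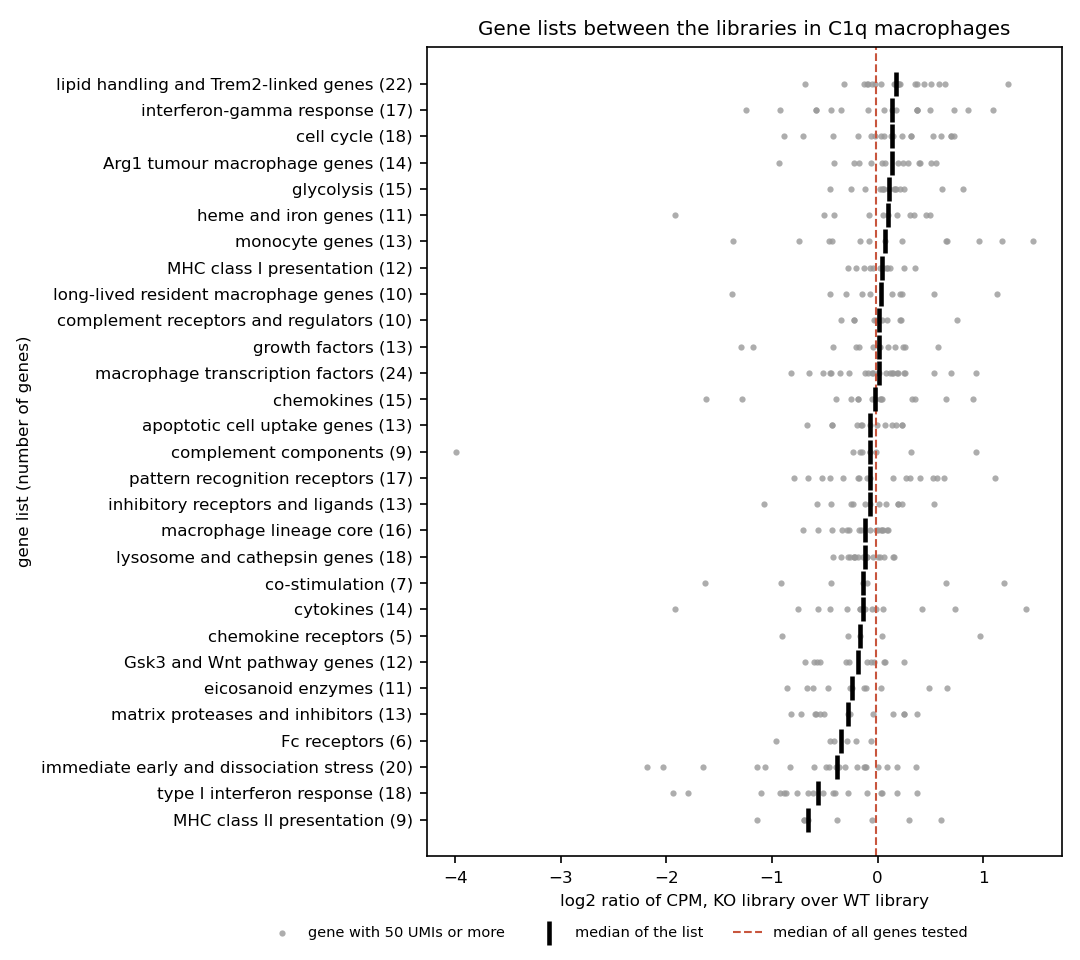
Each grey point is a gene with 50 or more UMIs, placed by its log2 ratio of CPM in C1q macrophages (KO library over WT library, horizontal axis) in the row of its list (vertical axis, number of genes in brackets). Black bars are list medians and the dashed line is the median of all 10521 genes; the MHC class II, type I interferon and stress lists have medians of -0.66, -0.56 and -0.38.

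Of 20 immediate early and stress genes, which also respond to tissue digestion, 7 were lower in the KO members and none higher, with a median of -0.38, against 6.05% lower and 2.92% higher among all genes. Jun was at 2342 and 1318 CPM (-0.83), Atf3 at 1605 and 1054 CPM (-0.61) and Dnajb1, a heat shock co-chaperone gene, at 367 and 175 CPM (-1.07). Fos (2541 and 1970 CPM) and Dusp1 (1517 and 1520 CPM) lay within 1.5-fold. Jun was found in 96.3% and 94.1% of members and in 96.2% and 94.3% of epithelial barcodes, and Dnajb1 in fewer members than epithelial barcodes, so detection does not set the members apart for either gene. Both kept their calls in all 15 alternatives, with log2 ratios from -1.03 to -0.77 for Jun and from -1.61 to -0.90 for Dnajb1. The part of this list in the differences above was not tested. Across WT members the shares of the stress and type I interferon lists went together (Spearman rho 0.58, n = 567 barcodes), and less so across KO members (0.25, n = 324). These points share library, depth and free RNA.

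Chemokine genes split within 1 family, where 2.92% of all genes were higher and 6.05% lower in the KO members. The monocyte-attracting Ccl2 was higher in the KO members, at 76.4 and 142 CPM (0.90, 0.74 to 1.06), and Ccl5 at 206 and 321 CPM (0.64, 0.54 to 0.74), while Ccl8 and Ccl12 were lower. Ccl12 was at 178 and 73.1 CPM (-1.28, -1.46 to -1.11), with a UMI in 43.0% and 25.6% of members against 1.36% and 0.587% of epithelial barcodes. The other 11 of 15 chemokine genes lay within 1.5-fold, among them Ccl7 (107 and 89.5 CPM) and Cxcl16 (590 and 580 CPM). The chemokine receptor gene Cxcr4 was higher in the KO members (38.8 and 76.1 CPM, 0.97). Among 14 cytokine genes Il1b (2654 and 2175 CPM) and Tnf (512 and 686 CPM) stayed within 1.5-fold, and Il23a and Lif, which passed it, were detected no more often than in epithelial barcodes.

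Monocyte genes were more abundant in the KO members for 4 of 13 genes and less for 2, against 2.92% higher and 6.05% lower among all genes. Besides S100a4 and F13a1, Ccr2, the receptor gene by which monocytes enter tissue, was at 25.2 and 39.5 CPM (0.65, 0.35 to 0.94) and Chil3 at 9.18 and 25.5 CPM (1.47, 1.04 to 1.91). Saa3 was at 47.4 and 18.3 CPM and Ifitm6 at 15.2 and 9.06 CPM. Ccr2 was found in 17.3% and 21.3% of members. Its log2 ratio was 0.98 in members with 0.2 to 0.4% of C1q, -0.58 at 0.4 to 0.8% and 1.12 at 0.8% or more. In the same order the ratios were 1.42, 0.01 and 1.47 for F13a1, 2.41, -0.21 and 2.56 for Chil3, and 0.56, 0.61 and 1.34 for S100a4. The Ccr2 call was lost at a C1q threshold of 0.1% and after thinning. Of 14 genes of Arg1 tumour macrophages only Inhba passed 1.5-fold, at 105 and 55.0 CPM (-0.93). Members near the C1q threshold carried this value: 440 of the WT UMIs of Inhba came from the 69 barcodes with 0.2 to 0.4% of C1q (463 and 141 CPM, -1.72). In members with 0.8% or more it was at 26.8 and 20.9 CPM (-0.35, -0.80 to 0.08), and the call was lost at a C1q threshold of 0.5% and after thinning. Spp1, the osteopontin gene, was at 1792 and 2634 CPM, Mmp12, the macrophage elastase gene, at 1128 and 1484 CPM, and Arg1, the arginase gene, at 275 and 289 CPM.

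Of 13 growth factor genes 2 were lower in the KO members (Bmp2, Ereg) and none higher. Of 13 genes of matrix proteases and inhibitors 3 were lower (Mmp9, Timp1, Mmp8) and none higher. Among all genes 2.92% were higher and 6.05% lower, which also stands beside the counts that follow. Timp1 kept its call in 5 of 15 alternatives, Mmp8 in 10, Mmp9 in 12, Bmp2 in 13 and Ereg in 11 of 14. Mmp9, a gelatinase gene, was at 267 and 161 CPM, but without members carrying other classes' markers its log2 ratio was 0.10. It is also a gene of neutrophils. Mmp2 (79.0 and 55.4 CPM), Mmp13 (160 and 107 CPM) and Mmp14 (218 and 259 CPM) lay within 1.5-fold, as did Hgf, the hepatocyte growth factor gene (16.3 and 15.7 CPM). Of 24 macrophage transcription factor genes 2 were higher, Tfec (45.8 and 87.4 CPM, 0.93, 0.73 to 1.14) and the low Spic, and 2 lower, Klf2 (924 and 587 CPM, -0.65, -0.72 to -0.59) and Batf3 (17.1 and 9.71 CPM). Maf was at 95.6 and 69.7 CPM (-0.46). Of 18 cell cycle genes 4 were higher, among them Mki67, a gene of dividing cells (45.8 and 74.0 CPM, 0.69), and 2 lower (Ccnb2, Cenpf), both found less often in members than in epithelial barcodes. Mki67 was found in 21.9% and 33.6% of members against 19.4% and 22.9% of epithelial barcodes. In 15 glycolysis genes Hk1 and Hk3, hexokinase genes, were higher, and of 12 genes of the Gsk3 and Wnt pathway 2 were lower, Lrp6 and Axin2, both found less often in members than in epithelial barcodes.

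The members varied widely in MHC class II RNA, so they were described in 3 ranges of the summed share of the class II list, ranges set after seeing the data. Under 0.5% lay 122 of 567 WT members (21.5%, exact binomial interval 18.2 to 25.1) and 129 of 324 KO members (39.8%, 34.4 to 45.4). Between 0.5% and 2% lay 20.5% of the WT and 21.0% of the KO members. At 2% or more lay 329 WT members (58.0%, 53.8 to 62.1) and 127 KO members (39.2%, 33.8 to 44.7). Without members carrying other classes' markers the lowest range held 20.6% and 36.6%. Within 20% of the 0.5% edge lay 13 WT and 17 KO members, and within 20% of the 2% edge 55 and 35. Depth moved with the ranges, with medians of 18495 UMIs (WT) and 16297 UMIs (KO) in the lowest and 10653 and 10248 UMIs in the highest.

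The lowest and the highest range are set side by side here for named genes. Lyz2 was at 25626 CPM in the lowest and 10275 CPM in the highest range of the WT library, and at 20769 and 8471 CPM in the KO library. Spp1 was at 3361 and 862 CPM in WT and at 3533 and 549 CPM in KO barcodes, and Pf4 at 1540 and 446 CPM and at 1289 and 537 CPM. Trem2 (428 and 222 CPM, then 412 and 186 CPM), Gpnmb (360.2 and 33.3 CPM, 281 and 104 CPM) and Arg1 (577 and 92.2 CPM, 454 and 84.1 CPM) followed the same order. Ccr2 (8.59 and 33.5 CPM, 12.6 and 81.2 CPM), Mertk (164 and 276 CPM, 91.6 and 194 CPM) and Il1b (1724 and 3270 CPM, 1100.1 and 3841 CPM) ran the opposite way. C1qa differed less between these ranges, at 4573 and 5320 CPM in WT and 4439 and 3948 CPM in KO barcodes. Ms4a7, at 675 and 648 CPM in WT and 570.2 and 436 CPM in KO barcodes, also differed by under 1.5-fold between them.

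Set side by side within a range, the libraries differed by gene. Il10 was higher in the KO members in all 3 ranges, with log2 ratios of 1.497, 1.23 and 1.68 from the lowest to the highest. Apoe was lower by -0.66, -0.06 and -0.92. Hspa1b was lower by -0.52, -1.28 and -2.19, and Cd83 by -0.88, -0.60 and -0.57. Ccl8 lay mostly in the highest range, at 518 CPM in WT and 143 CPM in KO barcodes (-1.86, -2.08 to -1.65), and in the middle range the KO library was the higher one (1.23). Cxcl9 was also concentrated there, at 64.7 and 285 CPM (2.14, 1.91 to 2.37), whereas in the middle range it was lower in the KO library (-1.17). Isg15 differed by 0.07, -0.31 and -0.30 within the ranges, against -0.66 over all members. Spp1 differed by 0.07, 1.08 and -0.65. F13a1 was alike in the lowest range (0.07) and higher in the others (2.25 and 1.89).

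**Figure D4:**
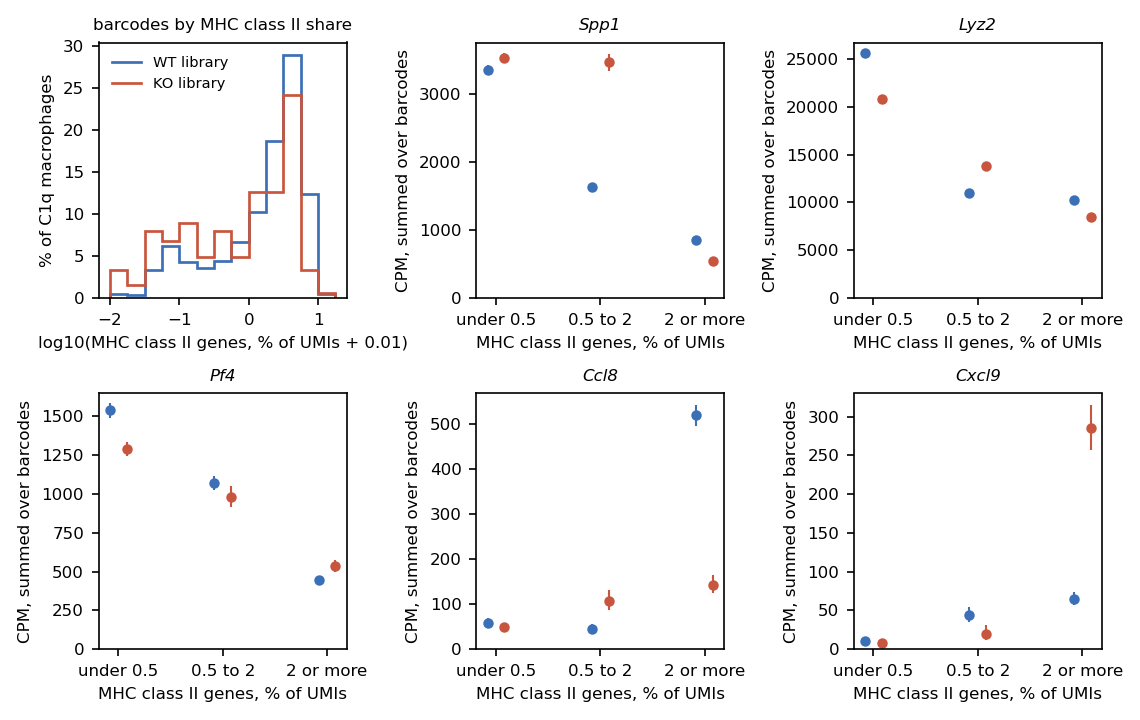
The first panel shows the percent of C1q macrophages (vertical axis) by the MHC class II share of a barcode, as log10(percent of UMIs + 0.01), for the WT (blue) and KO (red) library. The other panels show CPM summed over barcodes with exact Poisson 95% intervals in 3 ranges of that share; Spp1, Lyz2 and Pf4 are highest under 0.5%, and Ccl8 in the WT (518 CPM) and Cxcl9 in the KO library (285 CPM) at 2% or more.

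C1q itself also varied. The band of 0.8% or more held 404 WT members (71.3%) and 193 KO members (59.6%), the band from 0.4 to 0.8% 94 (16.6%) and 85 (26.2%), and the band just inside the threshold, 0.2 to 0.4%, 69 (12.2%) and 46 (14.2%). Just inside and just outside the threshold Apoe was at 4151 CPM inside and 3341 CPM outside in the WT library and at 4096 and 3722 CPM in the KO library. In the top band Apoe reached 26973 and 17304 CPM. Lysosome genes took a median of 0.780% of UMIs in the lowest band of the WT members and 1.98% in the top band, and 0.899% and 1.70% in the KO members. Lipid genes, Apoe included, went from 0.895% to 3.57% and from 0.978% to 2.55%. Markers of other classes moved with the bands as well. Epithelial markers took 0.802% of the summed UMIs in the lowest and 0.178% in the top WT band (0.361% and 0.209% in the KO library), neutrophil markers 0.402% and 0.177% (0.188% and 0.143%), and B and plasma cell markers 0.143% and 0.0423% (0.0410% and 0.0391%), and their part in the band differences was not tested. MHC class II medians from the lowest to the top band were 1.997%, 1.58% and 3.12% in WT barcodes and 1.48%, 1.58% and 0.999% in KO barcodes, with quartiles in the top band of 0.847 to 4.94% and 0.137 to 3.48%. In summed counts the log2 ratio of KO over WT in these bands was 0.25, -0.11 and -0.87 for Cd74 and 0.29, 0.03 and -0.97 for H2-Eb1, so by these sums the lower level of both genes in the KO members lay mainly in the band of 0.8% or more. Ccl8 was at 359 CPM (WT) and 125 CPM (KO) in the top band and at 18 and 6 CPM in the lowest one.

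**Figure D5:**
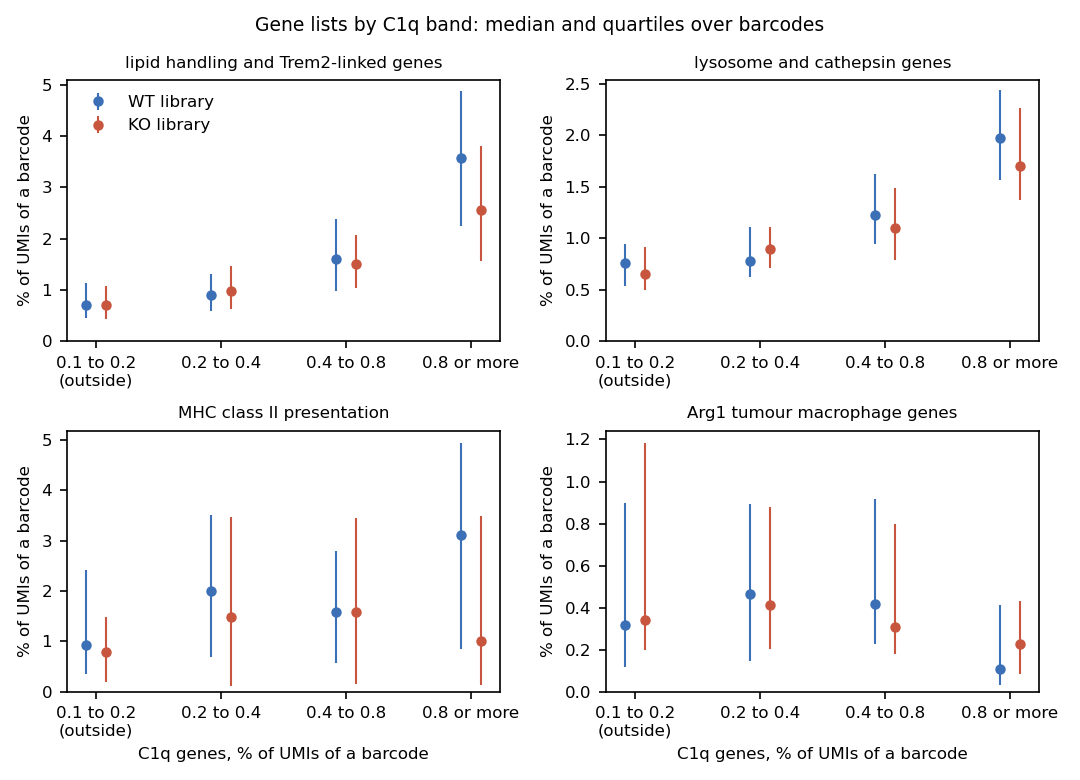
Each panel plots a gene list's share of a barcode's UMIs in percent (vertical axis) by the barcode's C1q share in percent (horizontal axis), for the WT (blue) and KO (red) library; points are medians and lines quartiles over barcodes. Lipid and lysosome genes are higher in the bands with more C1q in both libraries, and MHC class II reaches 3.12% in the top WT band and 0.999% in the top KO band.

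Across single barcodes the C1q share went with the lysosome list (Spearman rho 0.64 over 567 WT and 0.67 over 324 KO barcodes) and with Apoe (0.63 and 0.64). It went against the Arg1 macrophage list (-0.45 and -0.26). With MHC class II the relation was 0.29 in WT and -0.04 in KO barcodes. MHC class II in turn went against the summed monocyte list by -0.28 and -0.49. Most RNA of that list was Lyz2. In members with 0.8% or more of C1q the list took 1.73% of UMIs in WT and 1.87% in KO barcodes. Lyz2 alone stood there at 16512 and 17937 CPM. The value thus describes mainly Lyz2, and Ccr2, of the same list, ran the other way between the class II ranges above. The points share a library, its free RNA and the UMI total they are divided by, and the values are given as description only.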

How the data were processed

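Single-cell RNA was measured in 1 WT and 1 KO library of 10x 3′ tags. The deposited values are UMI counts per gene and barcode, from Cell Ranger 4 per the file headers. The submitters' processing notes also name mm10 and Seurat, with no role. The libraries held 164574326 and 156641780 UMIs over 32285 genes.

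Barcodes were chosen by the rule given at the opening. The CPM of a gene is its summed UMI count over the members of a library, relative to all their UMIs. With 1 library per group no test was run. Intervals of 95% are exact binomial for shares and exact conditional for ratios of counts, and cover counting error only. A gene was called when the libraries lay over 1.5-fold apart, the interval excluded no difference and the sums held 50 UMIs or more. The scripts ran on scanpy 1.11.5, pandas 2.3.3, scipy 1.17.1 and numpy 2.4.6 under Python 3.11.15. The intervals were tested on simulated sums with counting error alone, so spread between barcodes or libraries was not covered. Free RNA was taken from barcodes under 100 UMIs. Doublets were kept, and removed by Scrublet in an alternative. Genes named are the 10 furthest apart each way by the interval bound nearest to no difference, among genes that reached 30 CPM in one library and lay at or above its free RNA. Of each list up to 5 called genes and the 3 highest were named, and other genes after their values were seen. Of 510 list entries 507 matched a gene. The members and the lists were chosen with earlier results of these data known. In all, 15 alternatives were tried.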

Additional observations from a re-analysis of the deposited data

Results flagged for a closer look

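In 6 listed genes the libraries lay apart in one direction in the C1q macrophages and in the opposite direction in the low-C1q Csf1r barcodes without other classes' markers. The difference between these differences was not tested. The log2 ratio of KO over WT was -0.92 in the members and 1.05 in the low-C1q barcodes for Gbp5, an interferon-induced GTPase gene. It was -0.87 and 1.10 for Oasl1, -0.89 and 0.74 for Ifit1 and -0.61 and 0.82 for Rtp4, all induced by type I interferon. For Ereg, the epiregulin gene, it was -1.18 and 1.31. For Ccr2 it was 0.65 and -0.63. Ifit1, Rtp4 and Ereg were found in members no more often than in epithelial barcodes in at least 1 library.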

How the results depend on the processing

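No paired analysis was possible because each group is 1 library. Of 87 named genes called between the libraries, 30 kept their call when barcodes were thinned to 1000 UMIs, 67 with a minimum of 200 UMIs, 70 as a mean over barcodes and 77 to 87 in the other 12 settings. The log2 ratio changed sign for Cd55 with at most 10% mitochondrial UMIs (-0.0745), Axin2 at a C1q threshold of 0.1% (0.0211), Mmp9 without barcodes over 0.5% of another class's markers (0.10), and Ereg (2.39) and Mcm3 (-0.70) after thinning. The share of quality-filtered barcodes (WT, KO) was 5.88% and 3.57% at 2000 UMIs, 4.38% and 2.22% at 0.5% C1q, and 4.78% and 2.34% at 2 Csf1r UMIs. Without other classes' markers it was 26.5% and 22.2%. Barcodes with such markers then left the total as well, so this is a share of a smaller set, as in the Csf1r-positive share without them. The share of Csf1r-positive barcodes was 22.6% and 18.3% at 0.5% C1q, 52.2% and 49.5% at 2 Csf1r UMIs, and 48.0% and 46.0% without other classes' markers. Genes called between the libraries were 632 higher as a mean over barcodes, 137 higher and 124 lower after thinning, and 130 higher and 227 lower at 200 UMIs. Against all low-C1q Csf1r barcodes, 1482 genes were higher and 4245 lower in the members. These became 980 and 2235 at 2 Csf1r UMIs, 759 lower without other classes' markers, 2281 higher with free RNA subtracted, and 368 and 685 after thinning. Fewer UMIs or genes enter the thinned and 200-UMI settings, and the cause of the other changes was not tested.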
